A study of Mus musculus with 6 samples.

Results

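The genes described here were 8 of the 33696 features of a single-cell RNA series: the inhibitory receptor genes Pdcd1, Havcr2, Lag3, Tigit and Ctla4, the transcription factor gene Tox, and the PD-1 ligand genes Cd274 and Pdcd1lg2. They were chosen by symbol as a set of T cell checkpoint genes, each symbol was held by 1 feature, and all 8 were detected. The cells were CD45+ and DAPI- cells sorted from mouse mammary tumours, and the title of the series names MERTK inhibition and cyclophosphamide in triple negative breast cancer. There was 1 library for each treatment label, and the labels MRX, CTX, Combined, ctxd18t and combod18t are used as deposited because they are not spelled out. The protocol, which is the same text for every sample, says that mice at day 7 were treated 3 hours before harvest and names barcode sets for Combined, CTX, MRX and a further library, VC, that was not analysed here. It names none for ctxd18t and combod18t, whose labels carry d18, read here as day 18. The labels give no strain, age, tumour model, dose or number of animals behind a library.

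Inhibitory receptors restrain T cells that have met antigen. PD-1, the product of Pdcd1, is bound by PD-L1 (Cd274) and PD-L2 (Pdcd1lg2) and dampens antigen receptor signalling, and CTLA-4 competes with CD28 for CD80 and CD86. TIM-3 (Havcr2), LAG-3 and TIGIT are further inhibitory receptors, and LAG-3 and TIGIT bind MHC class II and the poliovirus receptor family. In tumours, T cells under lasting stimulation carry several of these receptors at once and depend on the transcription factor TOX to keep that state. PD-L1 is induced by interferon gamma in many cell types, PD-L2 mainly in dendritic cells and macrophages, and TIM-3 is also a constitutive gene of dendritic and myeloid cells.

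After filtering, 25653 cells remained, from 3845 in ctxd18t to 8506 in CTX, and the libraries held 39820290 to 100733879 UMIs in all. Median UMIs per kept cell lay between 6239 in MRX and 8940 in ctxd18t. Cells were clustered without the 8 genes, and clusters were named from marker lists. Finer clusters of T and NK cells were named by a gene found in at least 50% of their cells. This gene was Cd8a for CD8-like, Cd4 for CD4-like, Foxp3 for Treg-like (regulatory T) and Ncr1 for NK-like cells. CD8-like cells numbered 1152 in MRX, 756 in CTX and 337 in Combined, and 694 in ctxd18t and 830 in combod18t, and NK-like cells numbered 578 in MRX, 517 in CTX and 871 in Combined, and 82 in ctxd18t and 75 in combod18t. Barcodes were shared by CTX and combod18t (34) and by Combined and ctxd18t (21), pairs whose labels differ in treatment as well as day, and by no other pair of the 5 libraries. On-chip barcode sets are specific to a sample within a run, so the libraries of each pair may have used the same set. Whether the 2 d18 labels are exchanged was not tested. The libraries are given as labelled, and an exchange would turn the sign of every ratio and difference of combod18t against ctxd18t below. Levels below are sums of UMI counts for each class of each library, scaled to 1000000 UMIs (CPM), so a level is compared between classes and libraries for the same gene and not between genes. Since each label had 1 library, no test between treatments was possible. Intervals are 95% intervals of counting error only, from UMIs, and leave out the spread between animals. Those of levels and ratios take UMIs as independent, so they also leave out the spread between cells. Shares of cells with a UMI of the 8 genes are given after each cell was thinned to 2000 UMIs, and shares for marker genes are unthinned. In B-like cells, which lack the receptors in textbook descriptions, the thinned share with a UMI was at most 1.49% for any receptor and at most 3.29% for Tox, and these shares serve as the background. Fewer transcripts per cell and fewer cells with a transcript cannot be told apart in a summed level.

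Sequences just upstream of the transcription start are shown for the ligand pair, both of which were called higher in CTX than in MRX in monocyte-like, macrophage-like and dendritic cells, and for Pdcd1 and Havcr2, whose levels set one T cell subcluster apart. Each is the 250 bases before the RefSeq start in build GRCm38.p6, 5′ to 3′ on the strand of the gene. Capitals mark matches, on either strand, to 5 motifs: the STAT-type GAS (TTCNNNGAA), an interferon response element (2 copies of GAAA spaced by 2 bases), AP-1 (TGANTCA), the NFAT core (GGAAA) and an E-box (CACCTG). No match overlapped another.
Cd274, chr19:29367188-29367437, plus strand: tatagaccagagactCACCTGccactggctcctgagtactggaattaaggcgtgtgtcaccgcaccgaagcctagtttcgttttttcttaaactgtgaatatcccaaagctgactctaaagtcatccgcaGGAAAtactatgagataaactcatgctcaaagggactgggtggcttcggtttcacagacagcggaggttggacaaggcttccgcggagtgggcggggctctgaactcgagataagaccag
Pdcd1lg2, chr19:29410669-29410918, plus strand: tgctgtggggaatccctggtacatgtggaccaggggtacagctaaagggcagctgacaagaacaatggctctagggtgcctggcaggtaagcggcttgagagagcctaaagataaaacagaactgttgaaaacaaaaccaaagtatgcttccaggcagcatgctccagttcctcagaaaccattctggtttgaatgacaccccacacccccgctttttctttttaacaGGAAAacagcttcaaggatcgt
Pdcd1, chr1:94052554-94052803, minus strand: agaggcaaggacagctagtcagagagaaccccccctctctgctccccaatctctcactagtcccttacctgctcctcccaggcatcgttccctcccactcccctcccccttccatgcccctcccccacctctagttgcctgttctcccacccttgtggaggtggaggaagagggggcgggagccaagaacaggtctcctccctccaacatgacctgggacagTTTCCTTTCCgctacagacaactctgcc
Havcr2, chr11:46454681-46454930, plus strand: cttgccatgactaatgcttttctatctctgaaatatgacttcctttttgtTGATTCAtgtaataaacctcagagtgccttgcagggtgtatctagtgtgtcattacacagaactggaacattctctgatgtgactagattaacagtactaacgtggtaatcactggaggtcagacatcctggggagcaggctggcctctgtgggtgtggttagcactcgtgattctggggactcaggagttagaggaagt
Cd274 and Pdcd1lg2 are neighbours on chromosome 19, with starts 43481 bases apart on the same strand. Cd274 had an NFAT core 120 bases and an E-box 235 bases before its start, and Pdcd1lg2 had an NFAT core 22 bases before its start. Pdcd1 had NFAT cores in tandem, 28 and 23 bases before its start, and Havcr2 had 1 AP-1 match 200 bases before its start. These motifs are common: the NFAT core was in 55.6% of 32851 mouse windows of the same length, the E-box in 17.2%, AP-1 in 6.75%, GAS in 7.02% and the interferon response element in 2.98%. No GAS match and no interferon response element lay in the windows of the 6 members with an upstream entry, which says only that these letters were not in these windows.

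Pdcd1 (ENSMUSG00000026285), which encodes PD-1, was a gene of T cells in all 5 libraries. Its level in CD8-like cells was 202 CPM in MRX, 254 in CTX and 268 in Combined, and 452 in ctxd18t and 333 in combod18t. In Treg-like cells it was 216 CPM in MRX, 134 in CTX and 103 in Combined, and 283 in ctxd18t and 220.4 in combod18t. In CD4-like cells it was 96.2 CPM in MRX, 256 in CTX and 281 in Combined, and 202 in ctxd18t and 36.1 in combod18t. CD8-like cells were highest in ctxd18t and lowest in MRX, and CD4-like cells of combod18t stood below every other T class. NK-like cells had 1.57 CPM in MRX, 13.97 in CTX and 15.6 in Combined, and 52.5 in ctxd18t and 38.7 in combod18t, low in MRX and higher in the d18 libraries, while B-like cells stayed at 0 to 1.05 CPM. Over the 5 libraries the mean was 302 ± 96.2 CPM (SD, n = 5) in CD8-like, 191 ± 72.6 CPM in Treg-like and 174 ± 105 CPM in CD4-like cells, and these 3 ranges overlapped. The share of CD8-like cells with a Pdcd1 UMI was 25.1% in MRX, 24.9% in CTX and 22.3% in Combined, and 40.9% in ctxd18t and 28.4% in combod18t, and 0 B-like cells in each library had one, which allows a share of up to 1.49%.

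Within the T classes the level of Pdcd1 differed by subcluster, a finer cluster that was also built without the 8 genes. The CD8-like class held T7, led by Sema6d, Nrn1 and Cxcr6, T3, led by Gzmk and Ccl5, T8, led by interferon-induced and histone genes, and T2, led by Dapl1 and Sidt1. Havcr2 and Pdcd1 themselves were among the 10 leading genes of T7 although clustering had not used them. In T7 the level of Pdcd1 was 544 CPM in MRX, 587 in CTX, 743 in ctxd18t and 723 in combod18t, and Combined had only 8 T7 cells. In T3 it was 270.0 CPM in MRX, 232 in CTX and 291 in Combined, and 212 in ctxd18t and 315 in combod18t, and in T8 it ranged from 198 to 398 CPM. T7 was above T3 and T8 in each of the 4 libraries, and T2 stayed at 1.48 to 18.1 CPM. Among CD4-like subclusters, T4, led by Ccl1, Tnfsf11 and Penk, had 181 CPM in MRX, 399.9 in CTX and 377 in Combined, and 423 in ctxd18t and 268 in combod18t, whereas T1 and T6, led by Igfbp4, St8sia6 and other genes of resting cells, were at 0 to 1.82 CPM. T7 was not pure by transcripts: of its 704 cells, 85.8% had a Cd8a UMI, 27.7% a Cd4 UMI and 10.7% a Foxp3 UMI.

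**Figure D1:**
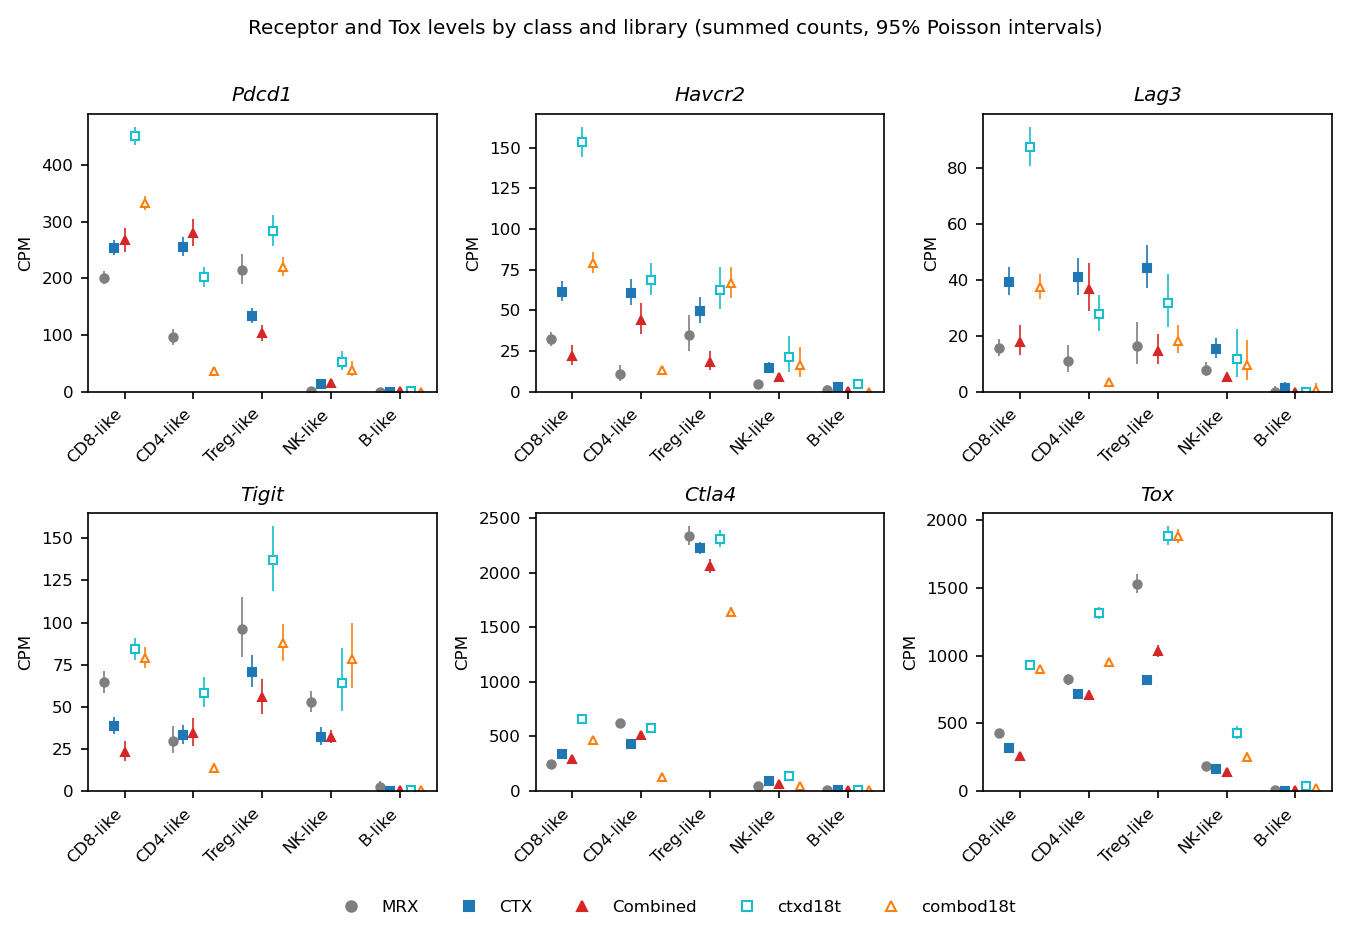
Level of the 5 receptor genes and Tox (CPM of the summed UMIs) in the 4 T and NK classes and in B-like cells, with 1 point per library and bars for exact Poisson 95% intervals of counting error. Ctla4 and Tigit were highest in Treg-like cells in every library, and the B-like points lie at or near the bottom of each panel for the receptors.

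Havcr2 (ENSMUSG00000020399), the TIM-3 gene, was more a myeloid and dendritic gene than a T cell gene in these tumours. In the pooled dendritic class it was 397 CPM in MRX, 313 in CTX and 293 in Combined, and 689 in ctxd18t and 475 in combod18t. In CD8-like cells it was 32.1 CPM in MRX, 61.6 in CTX and 21.9 in Combined, and 153 in ctxd18t and 79.3 in combod18t. In Treg-like cells it was 34.8 CPM in MRX, 49.9 in CTX and 18.4 in Combined, and 62.7 in ctxd18t and 66.8 in combod18t. Dendritic cells were highest in 4 of 5 libraries, with a mean of 433 ± 160.5 CPM (SD, n = 5), beside 348 ± 90.1 CPM in macrophage-like and 322 ± 64.5 CPM in monocyte-like cells. Every dendritic value was above every T class value of the same library. The dendritic class pooled all dendritic subclusters with under 30% of cells with Cd3e, also those left without a name. In MRX, 29 of its 176 cells were named type 1 conventional (cDC1-like), 90 type 2 conventional (cDC2-like) and 17 migratory. These numbers were 9, 98 and 35 of 304 cells in CTX and 11, 23 and 8 of 82 in Combined. A dendritic subcluster left without a name, D5, whose leading genes were Epcam and Itgae and which had 66 cells in all, reached 719 to 1513 CPM in the libraries with at least 20 of its cells. Among T cells, T7 was again high, at 88.3 CPM in MRX, 165 in CTX, 262 in ctxd18t and 174 in combod18t, and T3 was at 25.1 to 51.2 CPM. T4 was at 18.2 CPM in MRX, 93.2 in CTX and 58.8 in Combined, and 143 in ctxd18t and 92.2 in combod18t, lowest in MRX. NK-like cells held 4.52 to 20.98 CPM and B-like cells 0 to 4.83 CPM.

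Lag3 (ENSMUSG00000030124), whose product binds MHC class II, was found in T7, in plasmacytoid dendritic-like (pDC-like) cells and, in some libraries, in T4. In T7 its level was 109 CPM in MRX, 127 in CTX, 154 in ctxd18t and 91.4 in combod18t, while T3 held 12.4 to 23.8 CPM and T2 at most 2.86 CPM. In the whole CD8-like class it was 15.5 CPM in MRX, 39.4 in CTX and 17.8 in Combined, and 87.7 in ctxd18t and 37.5 in combod18t. In pDC-like cells, defined by Siglech, Ccr9 and Bst2, it was 64.7 CPM in MRX, 61.6 in CTX and 70.7 in Combined, and 67.3 in ctxd18t and 68.9 in combod18t. The pDC-like class was the highest of the 10 classes in 4 of 5 libraries, at 66.6 ± 3.56 CPM (SD, n = 5). The T cell markers Cd3d, Cd3e, Cd3g and Trac, all 4 of them above 0 in pDC-like cells of each library, summed there to 31.4 CPM in MRX, 138 in CTX and 542 in Combined, and 468 in ctxd18t and 728 in combod18t, and their part in the Lag3 level was not tested. Treg-like cells had 14.5 to 44.3 CPM of Lag3, CD4-like cells 3.41 to 40.95 CPM and NK-like cells 5.08 to 15.3 CPM. The CD4-like subcluster T4 held 19.1 CPM in MRX, 64.0 in CTX and 48.9 in Combined. The Treg-like subcluster T5 held 18.1 CPM in MRX, 46.7 in CTX and 15.1 in Combined.

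Tigit (ENSMUSG00000071552), a receptor for ligands of the poliovirus receptor family, was a gene of Treg-like, CD8-like and NK-like cells. In Treg-like cells it was 96.2 CPM in MRX, 70.5 in CTX and 55.5 in Combined, and 137 in ctxd18t and 87.8 in combod18t, the highest of the 10 classes in 5 of 5 libraries. In CD8-like cells it was 64.5 CPM in MRX, 38.5 in CTX and 23.1 in Combined, and 84.1 in ctxd18t and 78.8 in combod18t. In NK-like cells it was 52.7 CPM in MRX, 32.1 in CTX and 31.9 in Combined, and 64.3 in ctxd18t and 78.6 in combod18t. CD8-like and NK-like values overlapped, and Combined was lowest in both. Unlike Pdcd1, Havcr2 and Lag3, Tigit was not highest in T7 among CD8-like subclusters: T7 held 52.95 CPM in MRX, 45.7 in CTX, 102 in ctxd18t and 133 in combod18t, and T3 held 109.8 CPM in MRX, 73.8 in CTX, 125 in ctxd18t and 123 in combod18t. T3 was above T7 in 3 of these 4 libraries, all but combod18t, a difference not tested.

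Ctla4 (ENSMUSG00000026011) set Treg-like cells apart from all other classes. Its level there was 2339.5 CPM in MRX, 2225 in CTX and 2065 in Combined, and 2313 in ctxd18t and 1644 in combod18t. CD4-like cells had 620.5 CPM in MRX, 434 in CTX and 516 in Combined, and 573 in ctxd18t and 125 in combod18t. CD8-like cells had 246 CPM in MRX, 340.1 in CTX and 290.3 in Combined, and 659 in ctxd18t and 466 in combod18t. The lowest Treg-like value, in combod18t, was above the highest value of any other class, and the means were 2117 ± 285 CPM (SD, n = 5) in Treg-like and 454 ± 197 CPM in CD4-like cells. Both Treg-like subclusters carried it: T5, led by Il1rl1 and Foxp3, had 2072 to 2483 CPM, and T11, led by Ntn4 and Nrp1, had 1264 to 1857 CPM, below T5 in every library. T4 ranged from 609 to 1048 CPM and T7, without Combined, from 569 to 1029.7 CPM. Ctla4 was also seen in the resting subclusters T1, T2 and T6, at 47.7 to 325 CPM, above the 4.59 to 8.66 CPM of B-like cells.

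Tox (ENSMUSG00000041272), the transcription factor tied to T cell exhaustion, was not limited to cells with receptors. Treg-like cells had 1530.3 CPM in MRX, 819 in CTX and 1034 in Combined, and 1884 in ctxd18t and 1884 in combod18t. CD4-like cells had 825 CPM in MRX, 717 in CTX and 712 in Combined, and 1315 in ctxd18t and 949 in combod18t. CD8-like cells had 425 CPM in MRX, 315 in CTX and 254 in Combined, and 931 in ctxd18t and 899 in combod18t. Treg-like cells were highest in 5 of 5 libraries, followed in each by CD4-like and then by CD8-like cells, and the d18 libraries were above MRX, CTX and Combined in all 3 classes. The d18 libraries were not compared with the others by ratio, because the day changes with the label and the protocol gives a common run only for the others. The resting CD4-like subclusters T1 and T6, with almost no Pdcd1, held 871 to 1114 and 485 to 693 CPM of Tox, and T4 held 745 to 1909 CPM. Among CD8-like subclusters T7 was highest in each of the 4 libraries with enough T7 cells, at 979.6 CPM in MRX, 526 in CTX, 1222 in ctxd18t and 1621 in combod18t, against 209.6 CPM in MRX, 222 in CTX, 413 in ctxd18t and 434 in combod18t in T2. NK-like cells had 142 to 428 CPM.

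The order of classes was compared by the differences of neighbouring classes over the 5 libraries, with the exact two-sided sign-flip permutation test, whose smallest p with 5 libraries is 0.063. Of 72 neighbouring pairs over the 8 genes, 16 reached that smallest p, and the smallest value after Benjamini-Hochberg adjustment was 0.28125, so no neighbouring pair could pass 0.05. Pairs at the smallest p included Treg-like above CD4-like for Ctla4, Treg-like above CD8-like for Tigit, Treg-like above CD4-like, CD4-like above CD8-like and CD8-like above NK-like for Tox, and neutrophil-like above monocyte-like for Cd274. For Pdcd1, CD8-like was above Treg-like in 4 of 5 libraries, all but MRX.

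**Figure D2:**
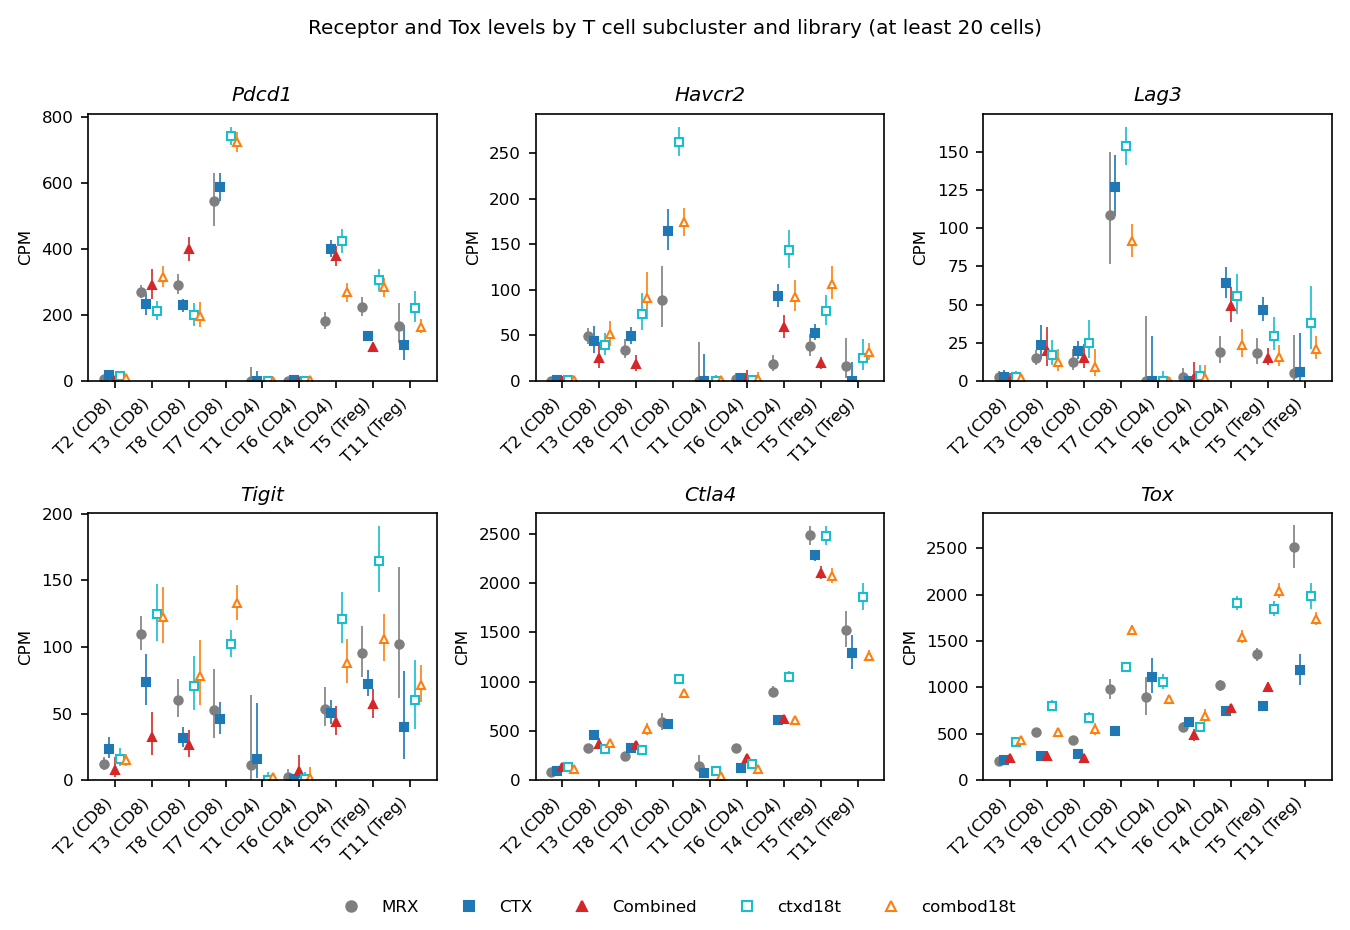
Level of the receptor genes and Tox (CPM) in the T cell subclusters, with 1 point per library with at least 20 cells and bars for exact Poisson 95% intervals. Pdcd1, Havcr2 and Lag3 are highest in T7 in the 4 libraries with enough T7 cells, Ctla4 in T5 and T11, and Tox is also present in the resting subclusters T1 and T6.

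The libraries were compared class by class with the log2 ratio of CPM + 1, and a value was called higher or lower when it differed at least 2-fold with a counting interval that excluded 0. This gave 24 values per comparison for the 5 receptors and Tox in the CD8-like, CD4-like, Treg-like and NK-like classes. In Combined against CTX, 0 of 24 were higher and 5 lower, all in Havcr2 or Lag3. Havcr2 was lower in CD8-like cells, with a log2 ratio of -1.45 (95% interval -1.93 to -1.08), and in Treg-like cells, with -1.39 (95% interval -1.995 to -0.92). Lag3 was lower in CD8-like cells, at -1.10 (95% interval -1.64 to -0.67), in Treg-like cells, at -1.55 (95% interval -2.23 to -1.03), and in NK-like cells, at -1.42 (95% interval -2.18 to -1.02). Of the background genes, those with at least 50 CPM in 1 of the 2 libraries, 0.551% were called lower in the same comparison in CD8-like, 0.181% in Treg-like and 0.0537% in NK-like cells, and 0.16% in CD4-like cells, where no member was called. Apart from Havcr2 in CD8-like cells, the called values lay under 50 CPM in both libraries. Among all genes with at least 10 UMIs, without that filter, the shares called lower were 1.57% in CD8-like, 0.965% in Treg-like and 0.417% in NK-like cells.

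Pdcd1 and Ctla4 differed by less than 2-fold between Combined and CTX in the CD8-like, CD4-like and Treg-like classes. Pdcd1 had log2 ratios of 0.07 (95% interval -0.06 to 0.21) in CD8-like, 0.13 (95% interval -0.02 to 0.28) in CD4-like and -0.37 (95% interval -0.62 to -0.13) in Treg-like cells. Ctla4 had -0.23 (95% interval -0.35 to -0.10), 0.25 (95% interval 0.14 to 0.36) and -0.11 (95% interval -0.16 to -0.05) in the same 3 classes. All 6 of these intervals lay inside the 2-fold limits. Within the CD8-like class Pdcd1 was called lower in the resting subcluster T2, at -2.94 (95% interval -8.96 to -1.01) from 1 against 27 UMIs. In pDC-like cells Pdcd1 and Ctla4 were called higher, at 2.16 (95% interval 1.37 to 3.36) and 2.21 (95% interval 1.88 to 2.59), beside the higher sum of T cell markers in pDC-like cells of Combined given above, whose part in these values was not tested. Ctla4 was also called higher in dendritic cells, at 2.97 (95% interval 2.35 to 4.51) from 33 against 11 UMIs, where the T cell markers summed to 16.4 CPM in CTX and 32.7 CPM in Combined. The Ctla4 UMIs lay in 5 of 82 dendritic cells in Combined and 9 of 304 in CTX. Of the 33 in Combined, 25 came from 2 cells of the dendritic subcluster D0.

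The Havcr2 and Lag3 differences between Combined and CTX were recomputed within subclusters, since the share of T7 in the CD8-like class was 3.21% in MRX, 13.6% in CTX and 2.37% in Combined, and 44.1% in ctxd18t and 30.1% in combod18t. Havcr2 without T7 was still lower in CD8-like cells of Combined, with a log2 ratio of -1.10, in T8 it was -1.37 (95% interval -2.16 to -0.73), and in T3 -0.79 (95% interval -1.81 to 0.11), short of 2-fold with an interval that held 0. Lag3 without T7 was -0.32, which is no longer past 2-fold. In the Treg-like subcluster T5, Havcr2 was -1.42 (95% interval -2.02 to -0.94) and Lag3 -1.56 (95% interval -2.25 to -1.04), as large as in the whole class. Tigit, not called in the whole classes, was lower within T3, at -1.17 (95% interval -2.04 to -0.42) from 18 against 62 UMIs, and within T2, at -1.54 (95% interval -3.37 to -0.30) from 5 against 35 UMIs. The 2 Lag3 values in CD8-like and NK-like cells rest on 44 against 234 and 42 against 70 UMIs and were not past 2-fold after thinning (-0.37 and -0.95).

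**Figure D3:**
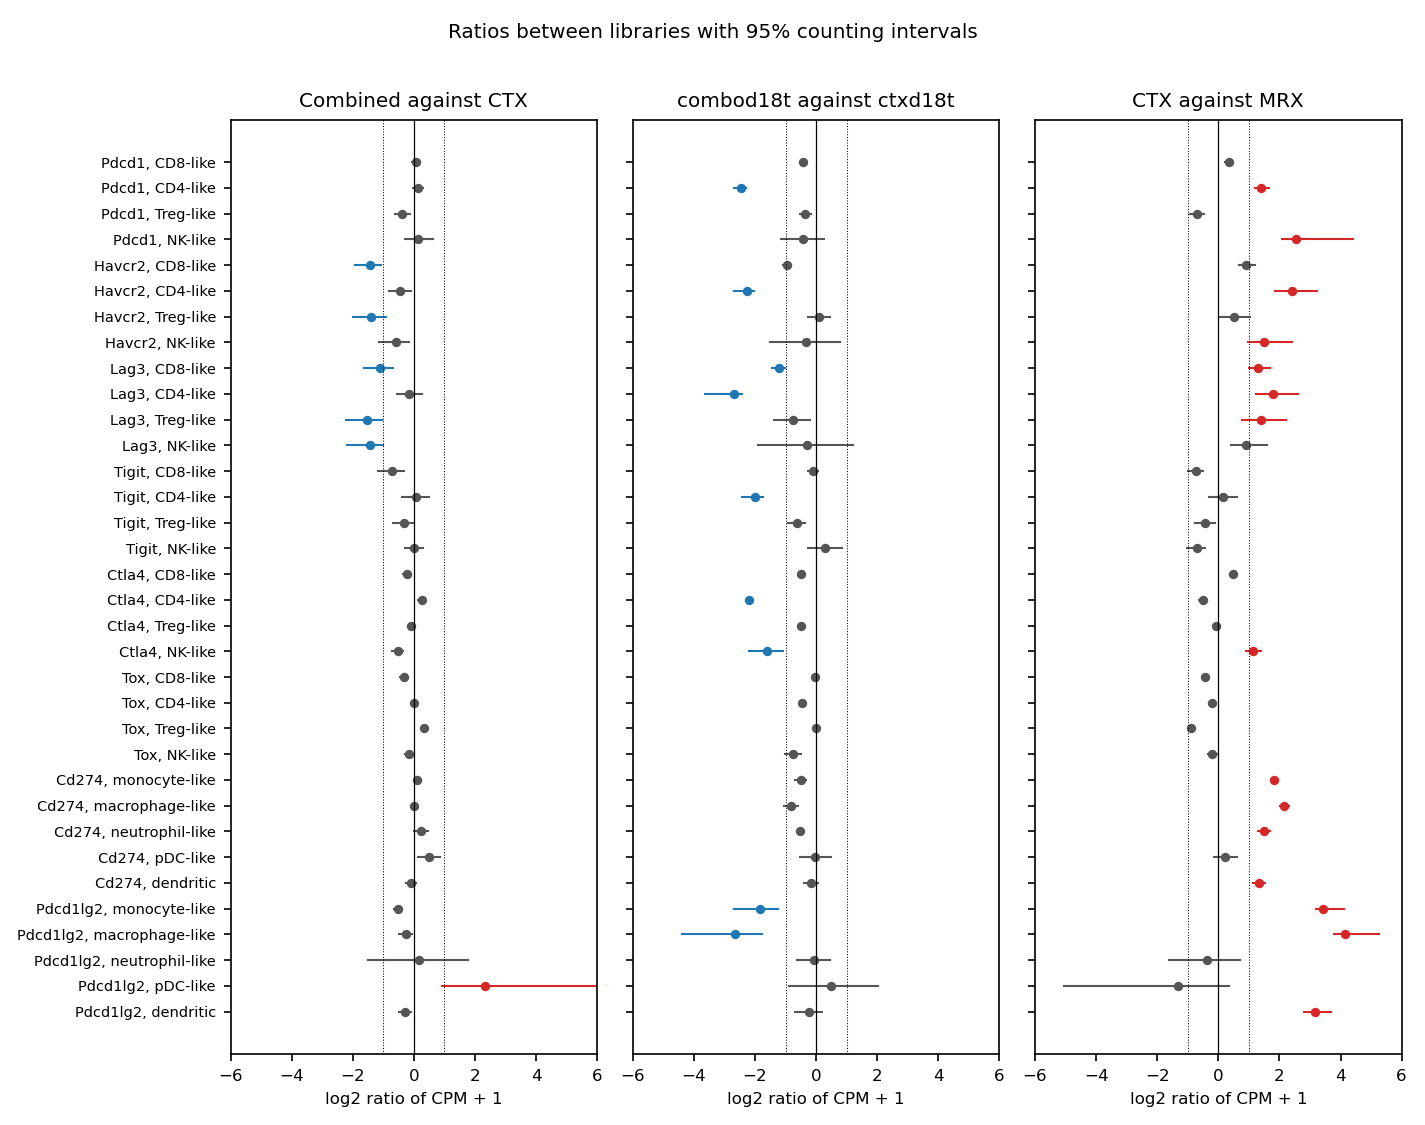
Log2 ratio of CPM + 1 for each receptor and Tox in 4 T and NK classes and for the ligands in 5 myeloid and dendritic classes, in 3 comparisons of libraries, with 95% intervals of counting error; red and blue mark values called higher and lower, dotted lines mark 2-fold and intervals that pass the edge of the axis end there. In combod18t against ctxd18t the CD4-like receptor points lie at -1.99 or below, and in Combined against CTX the coloured points are those of Havcr2 and Lag3 and 1 of Pdcd1lg2 in pDC-like cells.

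Between the d18 libraries most called values were in CD4-like cells. In combod18t against ctxd18t, 0 of 24 values were higher and 7 lower, and 5 of the 7 were the receptors in CD4-like cells. Pdcd1 was at 36.1 CPM in combod18t and 202 CPM in ctxd18t, a log2 ratio of -2.45 (95% interval -2.68 to -2.29). The ratio was -2.27 (95% interval -2.69 to -2.03) for Havcr2, -2.70 (95% interval -3.65 to -2.41) for Lag3, -1.99 (95% interval -2.41 to -1.73) for Tigit and -2.19 (95% interval -2.31 to -2.09) for Ctla4. Of background genes, 6.44% were called lower in this class and comparison and 1.5% higher, and without the filter on CPM, which Lag3 did not pass, 9.23% were called lower. Tox had -0.47 (95% interval -0.53 to -0.41), short of 2-fold. The class sums of the ligand genes were lower in CD4-like cells too, Cd274 with -1.17 (95% interval -1.38 to -0.98) and Pdcd1lg2 with -1.31 (95% interval -1.80 to -0.97).

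The makeup of the CD4-like class moved with this difference. The share of resting T1 cells in the class was 22.03% in ctxd18t and 82.7% in combod18t, and that of activated T4 cells was 42.1% in ctxd18t and 10.1% in combod18t. With subclusters weighted to the same mix in both libraries, the ratio was -0.64 for Pdcd1, -0.57 for Havcr2, -0.36 for Tigit and -0.79 for Ctla4, all short of 2-fold. Lag3 was still past it, at -1.10, and within T4 it was -1.20 (95% interval -1.90 to -0.60). Within T4, Pdcd1 was -0.66 (95% interval -0.86 to -0.46) and Ctla4 -0.78 (95% interval -0.91 to -0.66), lower in combod18t by less than 2-fold. The ligands did not all fall within subclusters. From ctxd18t to combod18t, Pdcd1lg2 went from 62.3 to 78.8 CPM in T4, 4.63 to 7.28 in T6 and 1.70 to 1.66 in T1. Cd274 went from 192 to 149 CPM in T4, 50.9 to 102 in T6 and 56.0 to 33.6 in T1.

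In CD8-like cells of the same comparison, Lag3 was lower in combod18t, at -1.21 (95% interval -1.43 to -1.03), where 0.899% of background genes were called lower. Havcr2 had -0.94 (95% interval -1.10 to -0.81), Pdcd1 -0.44 (95% interval -0.51 to -0.37) and Tox -0.05 (95% interval -0.10 to -0.001). The share of T7 differed between the libraries, as given above, and without T7 the Lag3 ratio was -1.13, while within T7 it was -0.74 (95% interval -0.96 to -0.54) and with the same mix of subclusters -0.74. Pdcd1 in T7 was close in both libraries, with -0.04 (95% interval -0.12 to 0.04), and Tox in T7 was higher in combod18t by less than 2-fold, with 0.41 (95% interval 0.35 to 0.47). Ctla4 in NK-like cells was the seventh value called lower, at -1.61 (95% interval -2.20 to -1.08), from 75 and 82 cells, where 0.863% of background genes were lower. Its UMIs lay in few of them, 38 in 11 cells of combod18t and 105 in 17 cells of ctxd18t. No receptor in Treg-like cells passed 2-fold between the d18 libraries, and 0.557% of background genes did in the lower direction.

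In CTX against MRX, 8 of 24 values were called higher and 0 lower. Counting intervals excluded 0 in both directions: 13 of 24 lay above 0, the 8 included, and 10 below. Those below were Tox in all 4 classes, down to -0.90 (95% interval -0.99 to -0.81) in Treg-like cells, Tigit in CD8-like, Treg-like and NK-like cells, Ctla4 in CD4-like and Treg-like cells and Pdcd1 in Treg-like cells. In CD4-like cells Pdcd1 was higher with 1.40 (95% interval 1.19 to 1.65), Havcr2 with 2.41 (95% interval 1.87 to 3.23) and Lag3 with 1.79 (95% interval 1.23 to 2.59), where 3.97% of background genes were higher, and 5.35% without the filter on CPM. Within T4 these 3 were still past 2-fold, at 1.14, 2.30 and 1.69. Lag3 was also higher in CD8-like cells, at 1.29 (95% interval 1.000 to 1.70), and in Treg-like cells, at 1.40 (95% interval 0.77 to 2.21), beside 2.06% and 0.632% of background genes, or 3% and 1.67% without the filter, which Lag3 did not pass. The CD8-like value was 0.52 without T7. The Pdcd1 value in CD4-like cells was 0.68 after thinning.

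NK-like cells gave the other 3 higher values of CTX against MRX, all at low levels. Pdcd1 was seen with 64 UMIs in CTX and 8 in MRX, a log2 ratio of 2.54 (95% interval 2.09 to 4.42). These lay in 21 of 517 and 5 of 578 cells. The thinned shares were 1.56% in CTX and 0.521% in MRX, beside at most 1.49% for any receptor in B-like cells. Havcr2 had 1.48 (95% interval 0.97 to 2.42) and Ctla4 1.12 (95% interval 0.90 to 1.39), and 0.3% of background genes were called higher. Pdcd1 and Havcr2 lay under the filter of 50 CPM, without which 1.69% of genes were called higher. The T cell markers Cd3d, Cd3e, Cd3g and Trac, all 4 above 0 in each library, summed in NK-like cells to 98.9 CPM in MRX, 180.5 in CTX and 167 in Combined, and 188 in ctxd18t and 164 in combod18t, lowest in MRX where Pdcd1 was lowest. Their part in the NK-like values was not tested. Tigit in NK-like cells was -0.70 (95% interval -1.02 to -0.42) in the same comparison.

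Combined against MRX shares its MRX library with the comparison above. Of 24 values 4 were higher in Combined: Pdcd1, Havcr2 and Lag3 in CD4-like cells, at 1.54, 1.96 and 1.64, and Pdcd1 in NK-like cells, at 2.69. The background was 4% of genes in CD4-like and 0.554% in NK-like cells, or 5.94% and 2% without the filter on CPM. Values called lower were Pdcd1 in Treg-like cells, at -1.06 (95% interval -1.34 to -0.80), and Tigit in CD8-like cells, at -1.44 (95% interval -1.91 to -1.08), beside 1.67% and 0.547% of genes. Pdcd1 in Treg-like cells was -0.69 (95% interval -0.92 to -0.46) in CTX against MRX, so CTX lay between MRX and Combined.

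Receptors were next counted in single cells, as the number of the 5 receptors with a UMI after thinning. The share of CD8-like cells with 2 or more was 20.3% in MRX, 19.02% in CTX and 16.5% in Combined, and 42.8% in ctxd18t and 27.8% in combod18t. In CD4-like cells it was 12.7% in MRX, 14.2% in CTX and 18.9% in Combined, and 19.5% in ctxd18t and 3.21% in combod18t. In Treg-like cells it was 42.2% in MRX, 34.9% in CTX and 22.4% in Combined, and 53.01% in ctxd18t and 35.2% in combod18t. The ctxd18t library was highest in all 3 classes, CD4-like cells of combod18t were lowest among the T classes, and no B-like cell had 2 receptors in any library. NK-like cells held 0.694% to 3.75%. In T7 the share was 47.2% in MRX, 54.9% in CTX, 73.9% in ctxd18t and 67.5% in combod18t, and in resting T2 it was 0% to 2.12%.

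Between libraries, the share of CD8-like cells with 2 or more receptors differed by -15.1 percentage points (95% interval -19.8 to -10.2) in combod18t minus ctxd18t and by -2.50 percentage points (95% interval -7.19 to 2.64) in Combined minus CTX, an interval that holds 0. The d18 difference was -7.67 percentage points when cells were thinned to 1000 UMIs. Within T7 the d18 difference was -6.45 percentage points (95% interval -14.1 to 1.17) and within T3 -1.78 percentage points (95% interval -11.5 to 7.998), both intervals holding 0. In Treg-like cells Combined was lower than CTX, with a difference of -12.5 percentage points (95% interval -19.9 to -4.81), and within T5 with -16.7 percentage points (95% interval -24.1 to -8.83). The d18 difference in Treg-like cells was -17.8 percentage points (95% interval -27.3 to -7.95), and within T5 it was -7.81 percentage points (95% interval -19.8 to 4.49), an interval that holds 0. In CD4-like cells combod18t was lower than ctxd18t, with -16.3 percentage points (95% interval -20.8 to -12.3), and within T4 with -19.8 percentage points (95% interval -30.2 to -8.70). Combined minus CTX was 4.71 (95% interval -0.36 to 10.2) in CD4-like cells. Combined minus MRX was 6.23 (95% interval 0.80 to 11.9) in CD4-like and -19.8 (95% interval -28.7 to -10.7) in Treg-like cells. CTX minus MRX was 1.64 (95% interval 0.18 to 3.40) in NK-like cells.

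**Figure D4:**
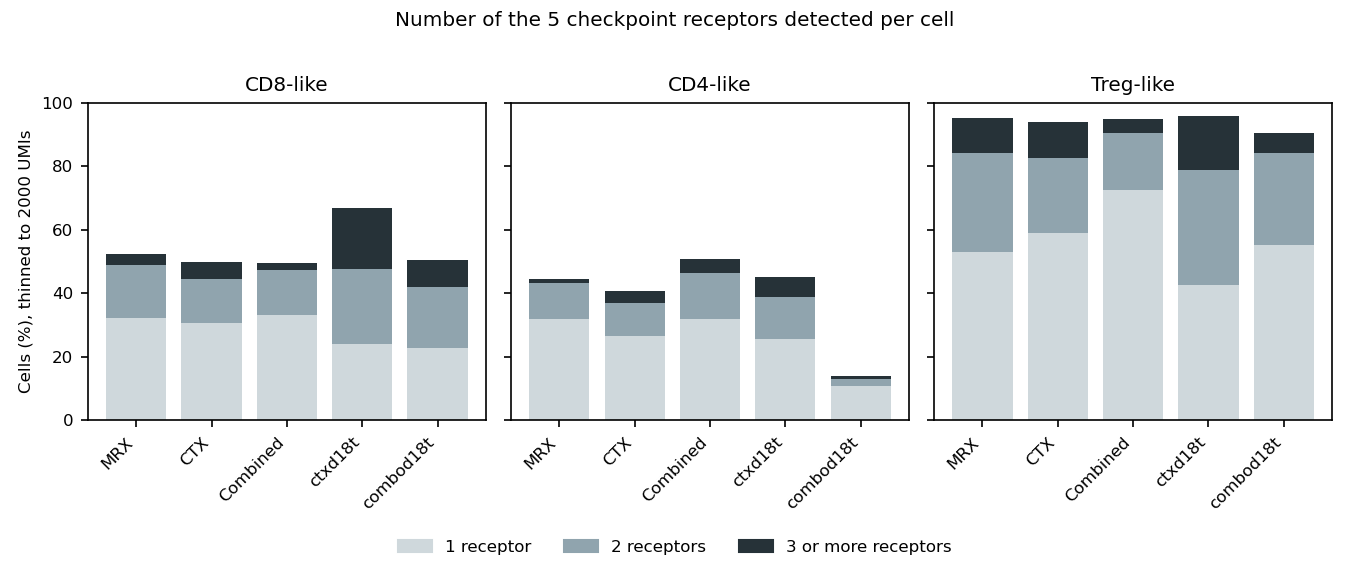
Percent of cells with 1, 2 or at least 3 of the 5 receptors detected (the rest had 0), as stacked bars, after thinning to 2000 UMIs, by class and library. Cells with 2 or more receptors are most frequent in ctxd18t in each class, and CD4-like cells of combod18t have the smallest share with 2 or more among T classes, 3.21%.

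Pairs of receptors were found in the same CD8-like cell more often than the product of their single shares. Pdcd1 and Ctla4 were both detected in a share of CD8-like cells of 11.4% in MRX, 11.97% in CTX and 11.6% in Combined, and 29.97% in ctxd18t and 19.2% in combod18t. The products of their shares were 7.64% in MRX, 7.84% in CTX and 7.92% in Combined, and 20.2% in ctxd18t and 10.5% in combod18t. The interval lay above the product in 5 of 5 libraries for this pair. The ratio of the observed share to the product was 1.47 to 1.82 for Pdcd1 with Ctla4, 1.81 to 2.24 for Pdcd1 with Havcr2 and 1.69 to 2.56 for Pdcd1 with Lag3, and the last 2 pairs had the interval above the product in 4 of 5 libraries. Havcr2 with Lag3 ranged from 1.71 to 4.09 and was above in 3 of 5. Pdcd1 with Tigit ranged from 1.24 to 1.96 and was above in 1 of 5. Over the 15 pairs of the 5 receptors and Tox, 36 of 75 pair-by-library intervals lay above the product.

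Subclusters hold fewer cells, and their intervals are wider. The observed share lay above the product in 35 of 60 values in T7, 50 of 75 in T3, 47 of 75 in T8 and 69 of 75 in T4, beside 69 of 75 in CD8-like and 70 of 75 in CD4-like cells. In T7, 0 of 60 pair-by-library intervals lay above the product, and Pdcd1 with Ctla4 had a ratio of 0.979 to 1.24. In T3, 0 of 75 did, with 1.14 to 1.36 for the same pair. Treg-like cells had 1 of 75 above, with 0.968 to 1.02 for Pdcd1 with Ctla4. CD4-like cells, a mixture of resting and activated subclusters, had 24 of 75, and T4 alone had 4 of 75. In NK-like cells 1 of 75 lay above.

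Tox was compared with the receptors in the same cells. CD8-like cells with a Tox UMI had 2 or more receptors in 26.2% in MRX, 22.5% in CTX and 17.5% in Combined, and 50.2% in ctxd18t and 37.9% in combod18t. Those without one had them in 15.7% in MRX, 16.9% in CTX and 16.1% in Combined, and 27.7% in ctxd18t and 13.6% in combod18t. The share was higher with Tox in all 5 libraries, by little in Combined and most in combod18t. Pdcd1 with Tox was 1.17 to 1.35 times the product, with an interval above it in 4 of 5 libraries, and Ctla4 with Tox was 1.07 to 1.21 times, above in 3 of 5. In T7 the ratio of Pdcd1 with Tox was 0.980 to 1.10, with no interval above the product.

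Of the ligands, Cd274 (ENSMUSG00000016496), the PD-L1 gene, was highest in neutrophil-like cells, which were defined by S100a8, S100a9 and Csf3r. Its level there was 298 CPM in MRX, 838 in CTX and 983 in Combined, and 1123 in ctxd18t and 786 in combod18t, the highest of the 10 classes in 5 of 5 libraries. Monocyte-like cells had 131 CPM in MRX, 465 in CTX and 498 in Combined, and 244 in ctxd18t and 172 in combod18t. Macrophage-like cells had 81.03 CPM in MRX, 365 in CTX and 367 in Combined, and 252 in ctxd18t and 143 in combod18t. MRX was lowest in all 3 classes, and CTX and Combined were close to each other in monocyte-like and macrophage-like cells. The pooled dendritic class had 138 CPM in MRX, 351 in CTX and 330.4 in Combined, and 309 in ctxd18t and 278 in combod18t, again lowest in MRX. The migratory subset marked by Ccr7 and Fscn1, a small class with 8 to 35 cells per library, reached 643 to 649 CPM in the libraries with at least 20 of them. NK-like cells had 94.9 to 155 CPM, Treg-like cells 114 to 187 CPM, and pDC-like cells 61.5 to 102 CPM.

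Pdcd1lg2 (ENSMUSG00000016498), the PD-L2 gene, was highest in the pooled dendritic class in 3 of 5 libraries. Its level there was 25.9 CPM in MRX, 243 in CTX and 199 in Combined, and 86.7 in ctxd18t and 73.9 in combod18t. In monocyte-like cells it was 5.77 CPM in MRX, 71.2 in CTX and 49.5 in Combined, and 40.9 in ctxd18t and 10.8 in combod18t. In macrophage-like cells it was 3.66 CPM in MRX, 81.4 in CTX and 67.3 in Combined, and 31.97 in ctxd18t and 4.21 in combod18t. CTX and Combined were the highest libraries and MRX the lowest in these 3 classes, apart from combod18t, which was as low as MRX in macrophage-like cells. NK-like cells held a steadier level, 50.5 to 76.2 CPM, as did Treg-like cells, 46.9 to 68.9 CPM, and B-like cells, 27.5 to 45.2 CPM, whereas pDC-like cells had 1.40 to 11.5 CPM. In the T7 subcluster it was 66.3 to 82.4 CPM.

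**Figure D5:**
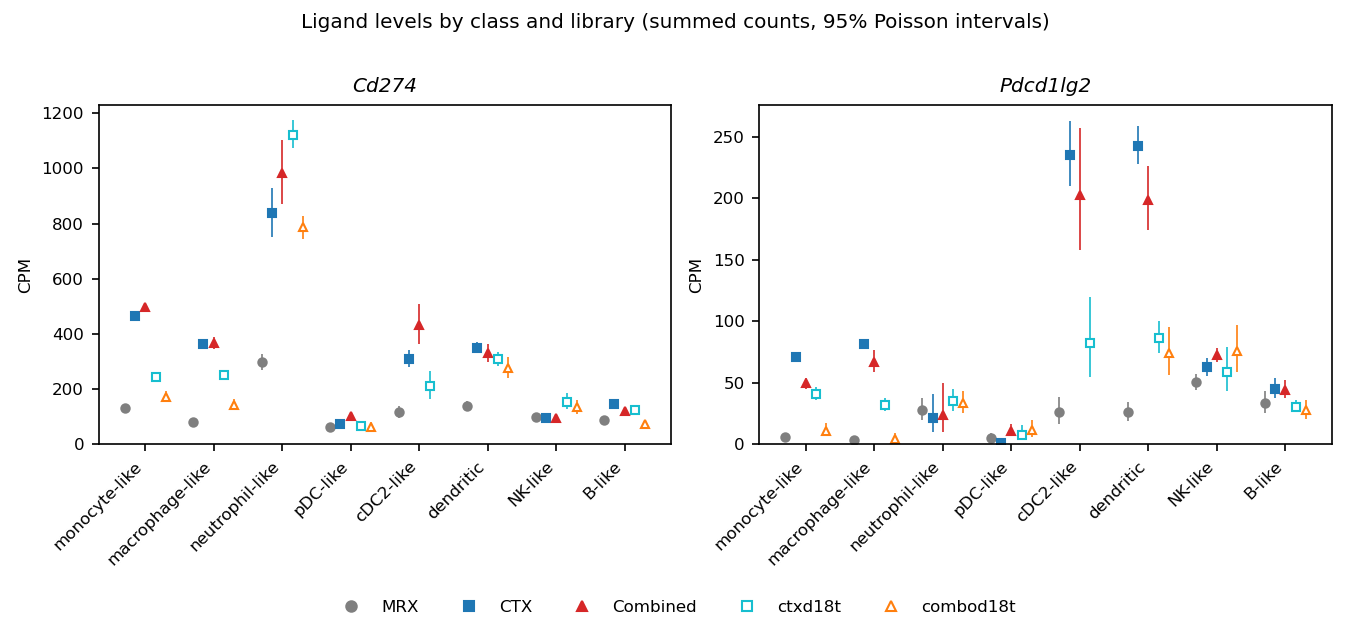
Level of Cd274 and Pdcd1lg2 (CPM) by cell class, 1 point per library, with exact Poisson 95% intervals of counting error. Neutrophil-like cells have the highest Cd274 in every library, and MRX has the lowest value of both genes in the monocyte-like and dendritic classes.

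Both ligand genes were called higher in CTX than in MRX in monocyte-like, macrophage-like, dendritic and cDC2-like cells, and Cd274 also in neutrophil-like cells. This made 9 of 12 values called higher and 0 lower (2 genes in 6 classes, of which cDC2-like is a subset of dendritic). Cd274 had log2 ratios of 1.82 (95% interval 1.74 to 1.93) in monocyte-like, 2.16 (95% interval 2.02 to 2.32) in macrophage-like and 1.34 (95% interval 1.15 to 1.54) in dendritic cells. Pdcd1lg2 had 3.42 (95% interval 3.19 to 4.10), 4.14 (95% interval 3.79 to 5.26) and 3.18 (95% interval 2.81 to 3.68) in the same classes. Among background genes, 2.4%, 2.4% and 2.78% were called higher there. The makeup of the dendritic class moved with these ratios: subcluster D0 was 7.95% of it in MRX and 24.7% in CTX, D4 1.14% and 21.1%, D7 20.5% and 1.64%, and D3 16.5% and 2.96%. With the same mix of subclusters, Cd274 in dendritic cells was 0.97, just short of 2-fold, and Pdcd1lg2 3.02. In the cDC2-like subset, marked by Cd209a and Clec10a, Cd274 had 1.41 and Pdcd1lg2 3.12, against a background of 2.92%. Cd274 in neutrophil-like cells had 1.49 (95% interval 1.28 to 1.70), in a class where 14.3% of genes were called higher. In pDC-like cells Cd274 had 0.23 (95% interval -0.16 to 0.61). The Pdcd1lg2 ratio was below 0 in these 2 classes, with intervals that held 0, at -0.36 (95% interval -1.60 to 0.69) in neutrophil-like and -1.33 (95% interval -5.06 to 0.36) in pDC-like cells, from 9 against 40 and 2 against 11 UMIs.

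The monocyte-like class was made of A0, led by Ly6i, Cxcl9 and Lpl, and A6, led by F13a1 and Fn1. The share of A0 in the class was 21.1% in MRX, 92.6% in CTX and 92.1% in Combined, and 25.6% in ctxd18t and 22.95% in combod18t, so it was the larger one in CTX and Combined. Within A0, Cd274 differed between CTX and MRX by a log2 ratio of 0.90 (95% interval 0.76 to 1.06) and Pdcd1lg2 by 3.07 (95% interval 2.41 to 4.17). Within A6 the ratios were 1.40 (95% interval 1.23 to 1.59) and 2.12 (95% interval 1.63 to 3.03). Cd274 within A0 was thus short of 2-fold, and the other 3 were past it. The summed level of the 8 macrophage markers in monocyte-like cells was 6644 CPM in MRX, 2596 in CTX and 2219 in Combined, and 4898 in ctxd18t and 3260.4 in combod18t, highest in MRX. Its part in the ratios was not tested.

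Combined against MRX, which shares the MRX library, also had 9 of 12 ligand values higher and 0 lower, with Cd274 at 1.92 and Pdcd1lg2 at 2.90 in monocyte-like cells, where the background was 3.29%, or 2.74% without the filter. Within A0 these ratios were 1.004 (95% interval 0.86 to 1.16) and 2.56 (95% interval 1.89 to 3.67), and within A6 they were 1.42 (95% interval 1.17 to 1.69) and 0.27 (95% interval -1.65 to 1.82), so Pdcd1lg2 was not past 2-fold in A6, where it rested on 4 against 30 UMIs. In macrophage-like, dendritic, cDC2-like and neutrophil-like cells the background of genes called higher was 2.96%, 3.59%, 5.91% and 9.89%. Combined against CTX had 1 of 12 higher and 0 lower. That value was Pdcd1lg2 in pDC-like cells, at 2.32 (95% interval 0.93 to 6.11), from 20 against 2 UMIs, where 2.11% of genes were called higher, or 5.44% without the filter. The sum of T cell markers in pDC-like cells was also higher in Combined, as given above, and its part in this value was not tested. With so few UMIs the ratio was 0.88 at a pseudocount of 10. In monocyte-like cells Cd274 was 0.10 (95% interval 0.06 to 0.15) and Pdcd1lg2 -0.52 (95% interval -0.67 to -0.39), and in macrophage-like cells they were 0.01 (95% interval -0.08 to 0.10) and -0.27 (95% interval -0.49 to -0.07), all within 2-fold. Within the monocyte-like subcluster A6 Pdcd1lg2 was called lower, at -1.85 (95% interval -3.94 to -0.56), from 4 against 48 UMIs.

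Between the d18 libraries, Pdcd1lg2 was lower in combod18t in macrophage-like cells, at -2.66 (95% interval -4.39 to -1.77), and in monocyte-like cells, at -1.83 (95% interval -2.70 to -1.23), so 2 of 10 values were lower and 0 higher. The counts were 6 against 143 and 18 against 244 UMIs, and 1.26% and 1.73% of background genes were called lower. Both values lay under the filter, without which the shares were 2.3% and 2.4%. The monocyte-like ratio was -0.97 after thinning and -0.38 as a mean over cells. Cd274 was lower by less than 2-fold, with -0.82 (95% interval -1.05 to -0.61) in macrophage-like, -0.50 (95% interval -0.69 to -0.32) in monocyte-like and -0.51 (95% interval -0.62 to -0.41) in neutrophil-like cells. In dendritic cells the ratios were -0.15 (95% interval -0.38 to 0.07) for Cd274 and -0.23 (95% interval -0.68 to 0.21) for Pdcd1lg2.

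The ligands were also looked for in the same cell. In monocyte-like cells both Cd274 and Pdcd1lg2 were detected in 0.235% in MRX, 6.57% in CTX and 4.06% in Combined, and 1.41% in ctxd18t and 1.69% in combod18t. The product of their single shares was 0.229% in MRX, 5.53% in CTX and 3.94% in Combined, and 1.42% in ctxd18t and 0.689% in combod18t. In dendritic cells both were detected in 2.33% in MRX, 16.7% in CTX and 13.6% in Combined, and 5.56% in ctxd18t and 7.32% in combod18t, against products of 0.406% in MRX, 14.6% in CTX and 11.3% in Combined, and 5.62% in ctxd18t and 6.25% in combod18t. The interval lay above the product only in CTX among monocyte-like cells and only in MRX among dendritic cells, where 4 cells had both.

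Other genes of the pathway were read from 4 lists. The first held 18 genes known from dysfunctional T cells, such as Batf, Id2 and the Nr4a genes. In CD4-like cells 9 of 18 were higher and 0 lower in CTX against MRX, with a median log2 ratio of 1.000 beside -0.03 over background genes, where 3.97% of background genes were called higher. In combod18t against ctxd18t 14 of 18 were lower and 0 higher, with a median of -1.64 beside 0.005, where 6.44% of background genes were called lower. The share of resting T1 cells in this class was 22.03% in ctxd18t and 82.7% in combod18t, and its part in these list counts was not tested. Among the 18 genes Tox2, a relative of Tox, had -3.11, Batf, an AP-1 family factor, -2.53, and Tnfrsf9, which encodes the costimulatory receptor 4-1BB, -2.55. In CD8-like cells 3 of 18 were lower and 0 higher in Combined against CTX, beside 0.551% of background genes called lower. The list median there was -0.32 beside 0.05. By this rule of size, 0 of 18 passed in the d18 comparison, where 0.899% of background genes were called lower and 1.05% higher. The list median was nonetheless lower there, at -0.47 beside 0.0005.

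The second held 12 stem-like and resting T cell genes. In CD8-like cells 3 of 12 were higher and 0 lower in combod18t against ctxd18t, where 1.05% of background genes were called higher. They were S1pr1, which lets T cells leave tissue, at 1.20, Il7r, the IL-7 receptor, at 1.13, and the transcription factor Lef1, at 1.08. The share of resting T2 cells in the class was 24.2% in ctxd18t and 45.9% in combod18t. In the same comparison 3 of 12 were higher and 1 lower in Treg-like cells, 3 higher and 1 lower of 10 with enough counts in NK-like cells, and 1 higher and 3 lower of 12 in CD4-like cells. Of background genes, 1.45% were called higher and 0.557% lower in Treg-like, 1.32% and 0.863% in NK-like, and 1.5% and 6.44% in CD4-like cells. The list median in Treg-like cells was 0.69 in this comparison, beside -0.02 over background genes. It went the other way in CTX against MRX, at -0.83 beside -0.06. Of 18 receptor partners and related receptors, 14 had enough counts in CD4-like cells, and 6 of them were lower and 0 higher in combod18t, beside the 6.44% of background genes called lower and the larger share of T1 cells in combod18t given above, whose part was not tested. These included Cd200 at -2.45 and Btla, another inhibitory receptor, at -1.18.

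Of 12 genes that bear on ligand induction, such as the interferon gamma receptor and STAT genes, Socs1, a feedback inhibitor of that pathway, was past 2-fold in macrophage-like and monocyte-like cells. In macrophage-like cells Socs1 was 1.94 (95% interval 1.68 to 2.34) in CTX against MRX and -1.54 (95% interval -2.32 to -0.95) in combod18t against ctxd18t. In monocyte-like cells it was 1.92 and -1.24. In all, 3 of 12 were higher and 0 lower in macrophage-like cells of CTX against MRX, where 2.4% of background genes were called higher, with a list median of 0.17 beside 0.04 over background genes. In monocyte-like cells 3 were higher and 0 lower, in dendritic cells 2 and 1, in pDC-like cells 0 and 0, and in neutrophil-like cells 3 and 1 of 11 with enough counts. Of background genes, 2.4% were called higher in monocyte-like, 2.78% in dendritic and 14.3% in neutrophil-like cells.

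The genes whose levels over the 47 class-by-library sums were most like each member were named by Pearson's r of log2 levels, as a description, since sums of 1 library share its depth and handling. For Pdcd1 they were Cxcr6 (r = 0.96), Trac (r = 0.95) and Cd3g (r = 0.95). For Ctla4 they were Icos (r = 0.96), Cd3g (r = 0.95) and Trac (r = 0.94), and for Tox Icos (r = 0.95), Camk4 (r = 0.95) and Gm20275 (r = 0.95). For Tigit they were Cd27 (r = 0.96), Gata3 (r = 0.96) and Gprin3 (r = 0.95). Havcr2 was most like Frrs1 (r = 0.91), Ifitm2 (r = 0.88) and Mcub (r = 0.88), and Lag3 was most like Dctn6 (r = 0.87), Lzts1 (r = 0.86) and Gnb4 (r = 0.86). Cd274 was most like Sod2 (r = 0.88), Upp1 (r = 0.88) and Acod1 (r = 0.88). Pdcd1lg2 had no close likeness, with Slc25a3 (r = 0.61), Arhgdib (r = 0.60) and Dennd11 (r = 0.60) at the top.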

How the data were processed

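The deposited values are whole UMI counts for each gene in each cell, which the authors made with Cell Ranger 9.0.1 from a 10x 3′ kit with on-chip multiplexing, per the labels' protocols. Seurat 5.2.0 and build GRCm39 are named in the submitters' processing notes, so upstream sequences, from RefSeq GRCm38.p6, are on another build than the counts and were used only for their letters and positions in that build. The 5 libraries were used as labelled, 1 per label, and the VC library was not used here. Cells with under 200 genes or over 15% mitochondrial counts were left out. Scrublet in scanpy 1.11.5 marked under 0.5% of cells by its own threshold, so about 5% of cells per library with the highest scores were removed. The 2000 most variable genes, without the 8 members and without cell cycle, mitochondrial, ribosomal and antigen receptor segment genes, were reduced to 30 principal components and clustered with leidenalg 0.10.2 at resolution 1, all cells first and then T and NK cells and dendritic cells apart. Clusters were named by their 5 best markers, apart from T and NK subclusters. These took their name from Ncr1, Trdc, Foxp3, Cd8a or Cd4, read in this order, where at least 50% of cells held the gene. Other T and NK subclusters, and those with both Cd4 and Cd8a at that share, were left without a name. Dendritic subclusters with Cd3e in at least 30% of cells were left out. Clusters whose median UMI count was over 2 times that of their own library entered no class. The members, lists and comparisons were chosen with earlier results of these data known, and the scoring rules for names were set after the clusters were seen.

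Counts were summed per class and library with at least 20 cells and scaled to CPM, with exact Poisson intervals. Library ratios are log2 ratios of CPM + 1 with the exact conditional binomial interval, given where a gene had at least 10 counts. For the background of a comparison, genes with at least 50 CPM in 1 of its libraries were used. Shares have Clopper-Pearson and differences of shares Newcombe intervals, after thinning each cell to 2000 UMIs and leaving out shallower cells, which were at most 23 per library in each T or NK class. All intervals are 95% intervals and cover counting error only. All 8 members are named. Genes of the 4 lists are named where they were past 2-fold in Combined against CTX or combod18t against ctxd18t with at least 100 counts over these 4 libraries, at most 6 per list and class. In a test on simulated counts for the CD8-like comparison of Combined with CTX, the direction of 200 changed genes among 7409 was recovered in 100% and 95.3% of intervals held the true value. Alternatives were another pseudocount, scaling, thinning, gene minimum, doublet rule, resolution, T subsets gated by transcripts, a common mix of subclusters and, added after seeing the data, the CD8-like class without T7. The analysis used Python 3.11.15, scipy 1.17.1 and pandas 2.3.3.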

Additional observations from a re-analysis of the deposited data

Results flagged for a closer look

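Among the 8 genes in the 10 classes, 68 values could be computed both for Combined against CTX and for combod18t against ctxd18t. For 10 of them the log2 ratios pointed in opposite directions with both counting intervals excluding 0. The difference between the ratios was not tested, since each rests on 1 library per label, and an exchange of the d18 labels would end the opposition. Cd274 had 0.28 and -0.62 in CD8-like, 0.30 and -1.17 in CD4-like, 0.61 and -0.41 in Treg-like, 0.10 and -0.50 in monocyte-like and 0.23 and -0.51 in neutrophil-like cells, the first value being that of Combined against CTX. Ctla4 had 0.25 and -2.19 in CD4-like and 0.96 and -0.96 in monocyte-like cells. The monocyte-like Ctla4 UMIs lay in few cells, 100 in 22 cells of Combined and 126 in 48 cells of CTX. In the d18 libraries they were 17 in 3 cells of combod18t and 124 in 16 cells of ctxd18t. Havcr2 had -0.14 and 0.41 and Tox -2.51 and 1.89 in macrophage-like cells, and Tox had 1.31 and -0.76 in B-like cells. The Combined against CTX values of Tox rest on 1 against 131 UMIs in macrophage-like and 14 against 3 UMIs in B-like cells, and the former had an interval of -9.67 to -1.86. The 131 UMIs lay in 33 of 1565 cells. The share of resting T1 cells in the CD4-like class was 5.11% in MRX, 4.62% in CTX and 5.63% in Combined, and 22.03% in ctxd18t and 82.7% in combod18t. No group had enough libraries to look for outlying samples.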

How the results depend on the processing

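No ratio called higher or lower changed direction. Of the values called higher or lower, 47 of 47 kept their call under median-of-ratios scaling, whose shift of the median gene was at most 0.138 on the log2 scale, 46 of 46 without doublet removal, 44 of 44 at resolution 2, 46 of 47 with at least 500 genes per cell, 44 of 47 as means over cells, 41 of 47 at a pseudocount of 10 CPM, 39 of 46 after thinning, 17 of 20 with T subsets gated by transcripts, 21 of 29 at the same mix of subclusters and 3 of 5 without T7. The totals differ because some values could not be computed under a setting. The 5 lower receptor values of Combined against CTX became 3 at a pseudocount of 10, 3 after thinning and 3 at the same mix, where 4 of the 5 could be compared. The 7 lower ones of combod18t against ctxd18t became 1 at the same mix, out of 6. The 8 higher ones of CTX against MRX became 5 at a pseudocount of 10, and 4 both with gated subsets and at the same mix, out of 5 each, and 1 value was lower with gated subsets. The 1 higher ligand value of Combined against CTX became 0 at a pseudocount of 10, and the count was 0 after thinning, without doublet removal, at resolution 2 and at the same mix, 4 settings under which that value could not be computed. The 2 lower ligand values between the d18 libraries became 1 after thinning, and 1 of 1 at the same mix. The 9 higher ligand values against MRX became 3 for CTX and 4 for Combined at the same mix, out of 4 each. The difference of -15.1 percentage points in CD8-like cells with 2 or more receptors between the d18 libraries was -7.67 after thinning to 1000 UMIs, and that of -1.27 for CTX minus MRX was 7.01 without thinning and 0.864 with gated subsets. That of -3.77 for Combined minus MRX was 1.17 without thinning. These 2 differences, whose intervals hold 0, thus changed sign. Without the 50 CPM filter the background counts moved by over 1.5 times in 56 of 56 comparisons. No paired analysis was possible because each label had 1 library, and for the same reason no replicate could be left out. Depth limits the called ratios that rest on few UMIs, such as Pdcd1lg2 in pDC-like cells of Combined against CTX (20 and 2) and Pdcd1 in NK-like cells of CTX against MRX (64 and 8).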

Other observations

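Checkpoint genes were also read in unnamed T subclusters that belong to no comparison above. The unnamed subclusters T9, led by Klra5, Trgc4 and Trdc, and T10, led by Il17a, Il23r and Scart2, held 36.8% and 41.8% of cells with a UMI of Trdc, the gamma-delta receptor constant gene. T10 had 109 CPM in MRX, 609 in CTX and 268 in Combined, and 431 in ctxd18t and 261 in combod18t of Ctla4, whereas T9 had 46.01 to 131 CPM. T9 had 56.96 to 87.1 CPM of Pdcd1lg2 and 220.5 to 279.7 CPM of Cd274, and T10 had 6.40 to 25.1 and 76.8 to 229 CPM. Tigit was at 28.4 to 99.6 CPM in T9 and 3.44 to 25.1 CPM in T10. These ranges are over libraries with at least 20 cells.

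The unnamed dendritic subcluster D0, led by Cxcl11, Ly6a and Isg15, is part of the dendritic class compared above. It had Cd274 at 381 CPM in CTX and 286 in Combined.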
